A study of Mus musculus with 8 samples.

Results

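Mature miRNAs miR-8092, miR-8113, miR-7674-5p, miR-5110, miR-5119 and miR-7221-5p form a set of 6 among the 1978 miRNAs listed in plasma or CSF exosomes of the mouse. They were selected on measured values: each ranked within the 10 largest fitted differences in favour of plasma among miRNAs with a mean of at least 20 UMIs. Small RNA was sequenced from exosomes of adult wild-type mice, either given DOCA-salt (deoxycorticosterone acetate with salt, a mineralocorticoid model of hypertension) or left without treatment (baseline). The groups were plasma DOCA-salt male, plasma DOCA-salt female, plasma baseline male, plasma baseline female and the same 4 groups of CSF, with 1 library each and all in batch 1. The design names 8 mice, and how mice or pools of mice map to libraries is not stated in the labels, so p-values within a fluid measure differences between single libraries of unlike groups rather than between animals.

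A miRNA is cut from a hairpin-shaped precursor RNA, whose 5′ and 3′ arms (5p and 3p) can each give a mature strand. One strand is usually kept in the silencing complex while the other is degraded, and the kept strand finds target messages mainly through its seed, bases 2 to 8. Exosomes carry miRNAs of the cells that release them, and plasma draws them from blood cells, vessel wall, liver and other organs, whereas CSF is bordered by the choroid plexus and the brain. The 6 miRNAs carry high registry numbers, given to entries found late by deep sequencing, and little is known of their targets.

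The mature sequences, from RefSeq on GRCm38.p6, are shown because the members turned out to share neither seed nor locus. Capitals mark the seed.
miR-8092: gCCAUCUGggacucgcaggca
miR-8113: cAGGAGAGucaggggcaaguag
miR-7674-5p: uGAGGUGUgggcagcaugaggacu
miR-5110: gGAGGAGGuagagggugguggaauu
miR-5119: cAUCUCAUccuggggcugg
miR-7221-5p: cGUCUCUUggucacagguggg

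The 6 members had 6 different seeds, so none of them belongs with another member to a seed family. Their GC content ran between 56.0% and 66.7% with a median of 60.5%, beside a median of 52.2% over the 1679 listed miRNAs with a RefSeq sequence (84.9% of those listed). miR-5110, at 56.0% G, also held the letters of the let-7 seed (GAGGUAG) starting at base 5 rather than at base 2. These letters occurred in 15 of the 1679 sequences (0.89%), in 11 of them at bases 2 to 8. This is a match of letters only.

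By the GENCODE M21 annotation of the same genome build (mm10, GRCm38), the loci differed in kind. miR-8092 (chr19:40894754-40894774, plus strand) lies in an untranslated exon of Zfp518a, a zinc finger gene. miR-8113 (chr6:125234756-125234777, minus strand) lies between coding-transcript exons of Cd27, a receptor of T and B lymphocytes, 61 bases before the next exon and inside an exon of a transcript that retains this intron. The gene Vamp1 runs across the same place on the other strand. miR-7674-5p (chr2:32050946-32050969, plus strand) lies in an intron of Nup214, which encodes a protein of the nuclear pore, with its hairpin ending directly at the next exon. On the other strand an exon of the non-coding Gm16534 and an intron of Fam78a cover it.

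miR-5110 (chr11:85760675-85760699, minus strand) runs against an intron of Bcas3 and has no host gene on its own strand. miR-5119 (chr11:98262638-98262656, plus strand) lies in an intron of a non-coding transcript of Cdk12, a kinase that acts on RNA polymerase II. miR-7221-5p (chr2:92592206-92592226, plus strand) lies in no other annotated gene. Whether the deposited counting used strand, and so whether fragments of host messages could enter these counts, is not given in the sources used here. The mature sequences of miR-8092 and miR-8113 also occur within annotated transcripts of Zfp518a and Cd27.

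In plasma the 6 miRNAs together took 0.93% ± 0.252 of all UMIs (SD, n = 4), and in CSF 0.0160% ± 0.00595 (n = 4). A UMI, or unique molecular identifier, tags 1 captured molecule before amplification. Their share was 1.23% and 0.915% in the plasma of the DOCA-salt male and female, against 0.612% and 0.967% in the baseline male and female. In CSF it was 0.0113% and 0.0198% in the DOCA-salt male and female, against 0.0105% and 0.0223% in the baseline male and female. Every plasma library thus lay above every CSF library, a separation fixed by the way the members were chosen. A change in the number of vesicles from a source and a change in miRNA per vesicle cannot be told apart in these fluids.

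miR-5110 was the most abundant member in plasma, at 3351 and 3594 CPM (each UMI count scaled by the UMI total of its own library) in the DOCA-salt male and female, against 523 and 4784 CPM in the baseline male and female. Its CSF level was 34.2 and 56.0 CPM in the DOCA-salt male and female, against 29.2 and 88.3 CPM in the baseline male and female. The baseline male plasma library stood apart with 83 UMIs, beside 1021 to 1339 in the other plasma libraries, yet was still 5.93-fold above the highest CSF level. Across plasma its highest level was 9.14 times its lowest.

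miR-8113 had 3249 and 1764 CPM in the plasma of the DOCA-salt male and female, against 1791 and 1715 CPM in the baseline male and female. In CSF it had 30.5 and 75.8 CPM in the DOCA-salt male and female, against 30.5 and 50.5 CPM in the baseline male and female. Here the DOCA-salt male was the high plasma library and the other plasma libraries lay close together.

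miR-5119 was the steadiest member in plasma, with 1789 and 1441 CPM in the DOCA-salt male and female, against 1432 and 1311 CPM in the baseline male and female, a span of 1.36-fold. Its CSF level was 14.8 and 39.5 CPM in the DOCA-salt male and female, against 26.6 and 37.8 CPM in the baseline male and female. The DOCA-salt male was highest, and the counting intervals of the DOCA-salt female (1316 to 1575 CPM) and the baseline male (1251 to 1630 CPM) overlapped.

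miR-8092 had 1707 and 1079 CPM in the plasma of the DOCA-salt male and female, against 1432 and 815 CPM in the baseline male and female. In CSF it rested on 18 and 4 UMIs in the DOCA-salt male and female, against 4 and 5 UMIs in the baseline male and female. In plasma the DOCA-salt male was highest and the baseline female lowest.

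miR-7674-5p had 1821 and 1097 CPM in the plasma of the DOCA-salt male and female, against 700.0 and 858 CPM in the baseline male and female. In CSF it had 17 and 1 UMIs in the DOCA-salt male and female, against 7 and 5 UMIs in the baseline male and female. Both DOCA-salt plasma libraries lay above both baseline plasma libraries in CPM, which held for 2 of the 6 members (this one and miR-5119) and for 13.7% of the 1398 miRNAs tested within plasma.

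miR-7221-5p was the least abundant, with 345 and 178 CPM in the plasma of the DOCA-salt male and female, against 240 and 186 CPM in the baseline male and female. In CSF it had only 1 and 3 UMIs in the DOCA-salt male and female, against 3 and 1 in the baseline male and female. Those 4 CSF counts do not exceed the floor of 3 counts per library, so its CSF level is hardly more than a detection.

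**Figure D1:**
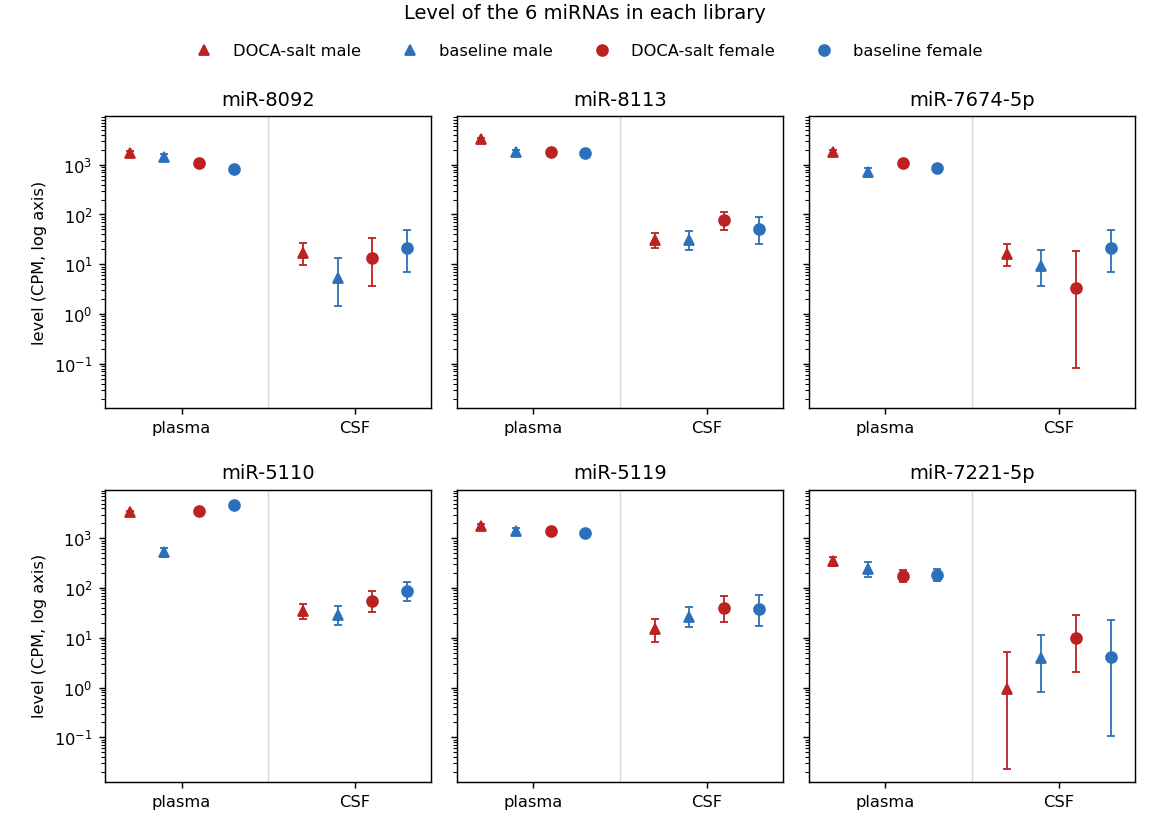
Level of each of the 6 miRNAs in every library in CPM (log axis), with plasma left of CSF, DOCA-salt in red, baseline in blue, triangles for males and circles for females. Bars are exact 95% intervals that cover counting error only. Every plasma point lies above every CSF point of the same miRNA, and miR-5110 in the baseline male plasma, at 523 CPM, lies far under the other plasma points.

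Ordered by mean plasma level, miR-5110 (3063 ± 1805 CPM) came first, then miR-8113 (2130 ± 747), miR-5119 (1493 ± 206), miR-8092 (1258 ± 392), miR-7674-5p (1119 ± 496) and miR-7221-5p (237 ± 76.8; SD, n = 4 for each). Means of neighbours in that order differed by less than the larger of their SDs, apart from miR-7221-5p, whose highest plasma library (345 CPM) was under the lowest of miR-7674-5p (700.0 CPM). The means in CSF were 51.9 ± 26.9 CPM for miR-5110, 46.8 ± 21.5 for miR-8113, 29.7 ± 11.5 for miR-5119, 14.03 ± 6.64 for miR-8092, 12.3 ± 7.70 for miR-7674-5p and 4.75 ± 3.74 for miR-7221-5p (SD, n = 4). The order of the means was thus the same in both fluids, although single libraries departed from it. In the baseline male plasma, for example, miR-5110 ranked below all members but miR-7221-5p.

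The fitted plasma over CSF differences, which chose the members and are given without a test, ran between 3.95 and 4.79 on the log2 scale under TMM scaling (trimmed mean of M-values). They were 4.79 ± 0.47 for miR-8092, 4.71 ± 0.53 for miR-7674-5p, 4.45 ± 0.60 for miR-5110, 4.19 ± 0.48 for miR-7221-5p, 4.10 ± 0.41 for miR-5119 and 3.95 ± 0.42 for miR-8113 (log2 difference ± SE, 4 libraries against 4). The edgeR quasi-likelihood test placed 25.6% of the 1146 tested miRNAs higher in plasma at a Benjamini-Hochberg adjusted p under 0.05, and all 6 members among them by construction. All 6 also had plasma libraries wholly above CSF libraries in CPM, as did 55.1% of tested miRNAs. The smallest member, miR-8113, stood at rank 10 of 211, and the next miRNAs outside were miR-7676-3p (3.88) and miR-6963-5p (3.77). Inside the same 10 were the non-members miR-200a-3p, miR-141-3p, miR-185-3p and miR-7066-3p.

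The size of these differences depended on scaling. With scaling to library totals the median difference over all tested miRNAs moved to 1.72, against 0.12 under TMM. The members then ran from 5.56 for miR-8113 to 6.55 for miR-8092. In plain ratios of mean CPM, they were between 45.5-fold (miR-8113) and 90.8-fold (miR-7674-5p) higher in plasma.

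Most marker lists of blood and tissue sources differed between the fluids as well, although the summed CPM of a list could go against the calls of its single markers. Summed over its 3 markers, the erythrocyte list (miR-451a, miR-144-3p, miR-486a-5p) stood at 16350 to 37450 CPM in plasma and 3540 to 6129 CPM in CSF, the leukocyte list at 25670 to 29050 CPM and 3653 to 5476 CPM, and the epithelial list (miR-200a-3p, miR-200c-3p, miR-141-3p) at 879 to 6446 CPM and 29.6 to 84.1 CPM. The 2 liver markers stood at 2257 to 4277 CPM in plasma and 503 to 1244 CPM in CSF. Under TMM scaling 2 of 3 leukocyte and 3 of 3 epithelial markers were called higher in plasma, while 2 of 3 erythrocyte and 1 of 2 liver markers were called lower, and none of these higher. The 2 striated-muscle markers, miR-133a-3p and miR-133b-3p, stood at 839 to 3010 CPM in plasma and 81630 to 101000 CPM in CSF. The 4 neural markers stood at 1417 to 2898 CPM in plasma and 1818 to 3173 CPM in CSF, ranges that overlap. The choroid plexus marker miR-204-5p stood at 74.1 to 111 CPM in plasma and 198 to 351 CPM in CSF. Under TMM scaling 2 of 2 striated-muscle, 2 of 3 tested neural and 1 of 1 choroid plexus markers were called lower in plasma. No marker was at 0 in either fluid. The part of these sources in the members' levels was not tested.

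Opposite strands offered a comparison that the choice of members had not used. For miR-8092, miR-8113, miR-5110 and miR-5119 no row for another arm was listed. Only miR-7674 and miR-7221 were listed with both arms, and the 3p strands, with the seed in capitals, read as follows.
miR-7674-3p: uCCCAUUCucaccgcacccag
miR-7221-3p: uGACUGUGggcuggggacugg
The Mir7221 hairpin (chr2:92592206-92592277, plus strand, GRCm38.p6) is shown with its pair of mature arms in capitals, since both strands of it were measured.
Mir7221: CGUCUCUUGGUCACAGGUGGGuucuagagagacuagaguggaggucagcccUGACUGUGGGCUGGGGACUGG

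Both 3p strands were higher in plasma too, with smaller estimates than their 5p strands, which were chosen for large ones. The difference between the arms was not tested. miR-7674-3p had 16 and 21 UMIs in the plasma of the DOCA-salt male and female, against 31 and 27 in the baseline male and female, with 7 and 10 UMIs in the CSF of the DOCA-salt male and female, against 4 and 4 in the baseline male and female. Its plasma over CSF difference was 1.28 ± 0.46 on the log2 scale (edgeR quasi-likelihood, adjusted p = 0.0264). Without the plasma baseline male, the CSF baseline female, the CSF baseline male or the CSF DOCA-salt male this call was lost (adjusted p = 0.0972, 0.0699, 0.0903 and 0.0934). miR-7221-3p had 110 and 99 UMIs in the plasma of the DOCA-salt male and female, against 9 and 65 in the baseline male and female, with 17 and 10 UMIs in the CSF of the DOCA-salt male and female, against 14 and 11 in the baseline male and female. Its difference was 1.63 ± 0.47 (adjusted p = 0.00697), and the baseline male plasma library was low for this strand as it was for miR-5110. Their CPM in plasma was higher than in CSF in every library, which held for 55.1% of tested miRNAs.

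The share of the 5p strand among UMIs of both arms was correspondingly higher in plasma for both hairpins. For miR-7674 it was 97.2% and 94.6% in the plasma of the DOCA-salt male and female, against 78.2% and 89.9% in the baseline male and female. In CSF it was 70.8% and 9.09% in the DOCA-salt male and female, against 63.6% and 55.6% in the baseline male and female, each from 9 to 24 UMIs. Summed over libraries the 5p share of miR-7674 was 93.1% in plasma (95% exact Clopper-Pearson interval 91.6 to 94.4) and 54.5% in CSF (40.55 to 68.0). For miR-7221 it was 48.8% and 37.7% in the plasma of the DOCA-salt male and female, against 80.9% and 44.4% in the baseline male and female, so in plasma the 5p strand made up most molecules in the baseline male only. In CSF the 3p strand prevailed in every library, with 5p shares of 5.56% and 23.1% in the DOCA-salt male and female, against 17.6% and 8.33% in the baseline male and female. The sums were 47.4% in plasma (43.1 to 51.7) and 13.3% in CSF (5.94 to 24.6). For both hairpins the intervals of the sums cover counting error only. In plasma they are narrower than the spread between libraries, which ran from 78.2% to 97.2% for miR-7674 and from 37.7% to 80.9% for miR-7221.

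**Figure D2:**
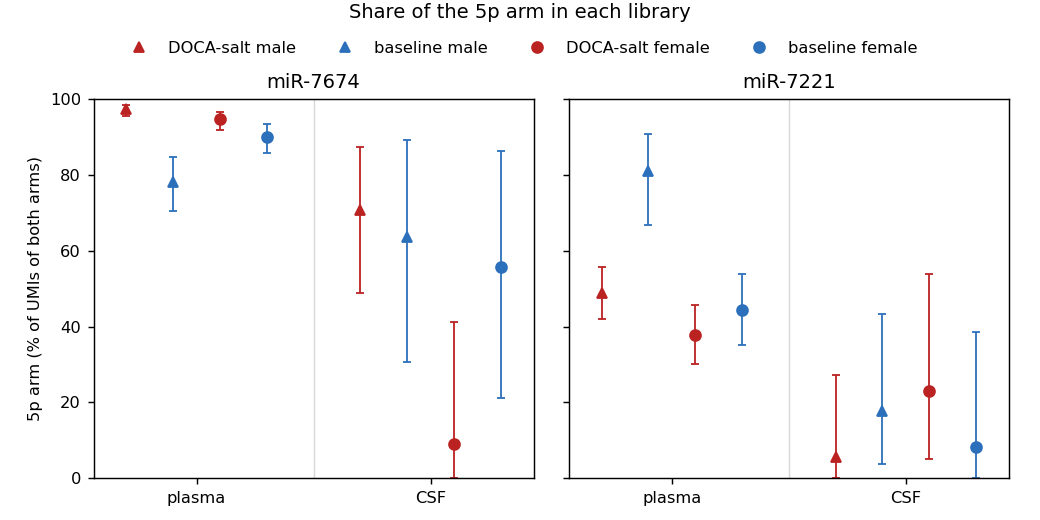
Share of the 5p arm among UMIs of both arms (percent) in each library for miR-7674 and miR-7221, plasma left of CSF, DOCA-salt in red and baseline in blue, males as triangles and females as circles. Bars are exact 95% binomial intervals that cover counting error only. All plasma shares lie above all CSF shares, the lowest plasma share of miR-7221 being 37.7% and its highest CSF share 23.1%.

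Shifts of arm share between the fluids were common. Over 658 hairpins with at least 50 UMIs in plasma and 20 in CSF, the median absolute difference in 5p share was 12.3 percentage points and the upper quartile 25.55. miR-7674 (38.5 points) stood at rank 82 and miR-7221 (34.1 points) at rank 106. These 2 hairpins carry a 5p member chosen for its plasma excess, so the direction of their shift was partly fixed by that choice.

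The neighbouring hairpin of miR-7221 also had arms with unlike estimates, but the larger one was on the other arm. miR-7222-3p, 2428 bases from miR-7221-5p on the same strand, averaged 2309 ± 551 CPM in plasma and 81.1 ± 46.9 CPM in CSF (SD, n = 4 each), a log2 difference of 3.30 ± 0.40 (edgeR, adjusted p = 3.08e-06). Its partner strand miR-7222-5p averaged 76.9 ± 17.3 CPM in plasma and 27.4 ± 11.8 CPM in CSF, a log2 difference of -0.06 ± 0.35 (adjusted p = 0.900). In this hairpin the 3p strand, and in miR-7221 the 5p strand, was the one with the larger estimate, and the difference between arms was not tested. By the deposited coordinates no other listed miRNA lay within 10 kb of a member apart from the opposite arms.

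None of the tested miRNAs that share a seed with a member was called higher in plasma, where 25.6% of all 1146 tested miRNAs were. They are too few to say anything about seeds. The seed of miR-8113, AGGAGAG, recurs in miR-7012-5p, miR-8119 and miR-7057-5p, and that of miR-5110, GAGGAGG, in miR-7081-5p. They are shown with the seed in capitals, and their letters differ from the members' outside it.
miR-7012-5p: aAGGAGAGgaguuggcagggacu
miR-8119: gAGGAGAGggagcuaggguc
miR-7057-5p: cAGGAGAGgacucaaguu
miR-7081-5p: aGAGGAGGgugcucggccggggauua
miR-7012-5p averaged 108 ± 55.5 CPM in plasma and 40.8 ± 24.5 CPM in CSF, a log2 difference of -0.08 ± 0.37 under TMM scaling (edgeR, adjusted p = 0.872). miR-8119 averaged 246 ± 10.5 CPM in plasma and 66.8 ± 34.7 CPM in CSF (0.39 ± 0.33, adjusted p = 0.338). miR-7081-5p averaged 229 ± 30.8 CPM in plasma and 47.3 ± 22.9 CPM in CSF (0.73 ± 0.34, adjusted p = 0.0769; SD, n = 4 each). miR-7057-5p was too low to be tested, at 84.7 ± 75.2 CPM in plasma and 12.1 ± 9.28 CPM in CSF. In CPM every plasma library lay above every CSF library for miR-8119, miR-7081-5p and miR-7057-5p, but not for miR-7012-5p. Such a separation held for 55.1% of tested miRNAs.

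Other miRNAs with high registry numbers were called in both directions. With the members left out, 10 of 40 tested miRNAs numbered from 5000 to under 6000 were called higher and 14 lower in plasma, 54 and 55 of 232 numbered from 7000 to under 8000, and 4 and 9 of 23 with 4-digit numbers that begin with 8. Their median log2 differences were -0.25, 0.14 and -0.36, beside 0.11 for all 1140 tested miRNAs other than members, of which 287 were called higher and 300 lower. Numbers from 6000 to under 7000, in which no member falls, had 70 higher and 41 lower of 212, with a median of 0.35. Numbers under 1000 had 92 higher and 127 lower of 416, and numbers from 1000 to under 5000 had 44 and 43 of 166.

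How the members answered the hypertensive treatment was asked first in plasma, over both sexes. None of the 6 passed the edgeR test, for which 1.07% of 1398 tested miRNAs were called, and all 6 estimates were above 0. The largest was miR-5110 at 1.25 ± 0.54 on the log2 scale (adjusted p = 0.261), followed by miR-7674-5p at 1.02 ± 0.48 (adjusted p = 0.337) and miR-8113 at 0.61 ± 0.45 (adjusted p = 0.601). miR-8092 stood at 0.49 ± 0.47 (adjusted p = 0.706), miR-5119 at 0.39 ± 0.46 (adjusted p = 0.769) and miR-7221-5p at 0.39 ± 0.46 (adjusted p = 0.764). The members' median was 0.55, beside -0.03 over all tested miRNAs, and 2 of the 6, miR-5110 and miR-7674-5p, had an unadjusted p under 0.05, as did 13.7% of all. DESeq2's Wald test called 1 miRNA in this comparison, which was no member.

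Taken sex by sex, 11 of the 12 DOCA-salt over baseline ratios of the members in plasma were above 0 under TMM scaling, and 10 of the 12 under scaling to library totals, where miR-7221-5p in females turned to -0.06. TMM factors raised every such ratio relative to plain CPM, the median over all tested miRNAs being -0.04 in males and -0.03 in females under TMM, against -0.14 and -0.24 with library totals. Under TMM scaling miR-7674-5p had log2 ratios of 1.47 (95% exact interval of the counts 1.18 to 1.78) in males and 0.59 (0.35 to 0.83) in females. miR-8113 had 0.95 (0.76 to 1.15) in males and 0.27 (0.10 to 0.45) in females. With library totals the female ratios of miR-7674-5p (0.35, 0.12 to 0.60) and miR-8092 (0.40, 0.16 to 0.65) stayed above 0 beyond counting error. Those of miR-8113 (0.04, -0.14 to 0.22) and miR-5119 (0.14, -0.06 to 0.34) did not, nor did the male ratio of miR-7221-5p (0.52, -0.02 to 1.10). The male ratios of the other members stayed above 0 beyond counting error. Each ratio sets 1 library against 1. miR-8092 had 0.35 (0.12 to 0.58) in males and 0.64 (0.40 to 0.89) in females. miR-5119 had 0.41 (0.19 to 0.65) in males and 0.37 (0.17 to 0.57) in females, and miR-7221-5p had 0.61 (0.07 to 1.19) in males and 0.17 (-0.39 to 0.74) in females. In all, 5 of the 6 members were above 0 in both sexes under TMM scaling, against 28.0% of tested miRNAs. With library totals 4 of the 6 were, against 20.2%. These counts rest on the same 4 libraries for every member, so the members are no replicates of the treatment and the counts carry no test. The median ratio of the members under TMM was 0.78 in males and 0.32 in females.

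miR-5110 was the exception. In males its log2 ratio of DOCA-salt over baseline was 2.76 (2.45 to 3.11), and in females -0.18 (-0.29 to -0.07). Its difference between the sexes, 2.94, stood at rank 20 of 1398 in absolute size, and the low level in the baseline male library set the male ratio. With that library left out the fitted DOCA-salt effect of miR-5110 was -0.42, and with the baseline female left out it was 3.10 (edgeR with treatment as the only term, adjusted p = 0.00234). That second fit has the baseline male as its only baseline library and assumes that it varies like the DOCA-salt libraries. A test of the difference between sexes needs replicate libraries of a combination, which the design does not have.

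**Figure D3:**
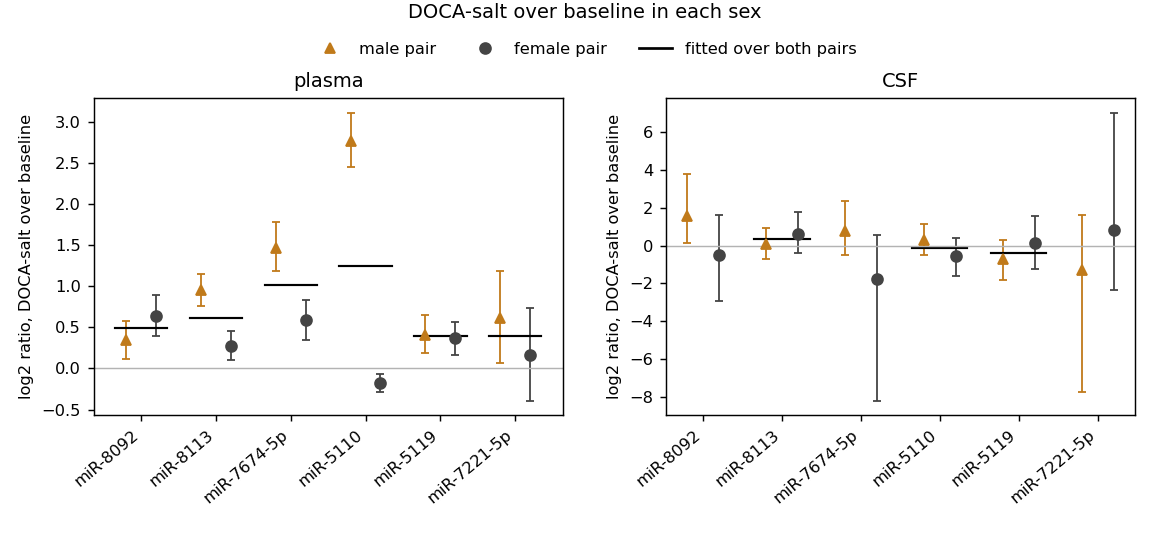
DOCA-salt over baseline as a log2 ratio for each member in plasma (left panel) and in CSF (right panel, wider axis), with triangles for the male pair and circles for the female pair of libraries. Ratios are TMM-scaled, bars are exact 95% intervals of the counts and black lines the fitted effect where the miRNA was tested. In plasma only the female pair of miR-5110, at -0.18, lies under 0, whereas in CSF most intervals cross 0.

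The 3p partners had DOCA-salt estimates in plasma of opposite sign to each other. miR-7674-3p was at -1.09 ± 0.44 (adjusted p = 0.216) where its 5p strand was at 1.02, and neither passed the test. miR-7221-3p was at 1.47 ± 0.52 (edgeR, adjusted p = 0.162), above 0 like its 5p strand at 0.39. Its log2 ratios were 2.67 (1.79 to 3.93) in males and 0.56 (0.11 to 1.05) in females. The 9 UMIs in the baseline male set the male value.

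In CSF the same question could be put to only 3 members, since miR-8092, miR-7674-5p and miR-7221-5p did not pass the filter on low counts. The estimates were 0.34 ± 0.51 for miR-8113 (edgeR, adjusted p = 0.913), -0.11 ± 0.51 for miR-5110 (adjusted p = 0.974) and -0.37 ± 0.57 for miR-5119 (adjusted p = 0.913). None was called, where 0.193% of 1036 tested miRNAs were, and none had an unadjusted p under 0.05, as 8.59% of all had. DESeq2's Wald test called 0 miRNAs. These 3 rested on 9 to 37 UMIs per library, and each estimate was smaller than its SE. Among the untested members, miR-8092 had 18 UMIs in the DOCA-salt male, against 4 in the baseline male, a log2 ratio of 1.55 (0.14 to 3.76), and 4 in the DOCA-salt female, against 5 in the baseline female, a ratio of -0.50 (-2.95 to 1.60).

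Males were compared with females over both treatments. In plasma 0 of the 6 members were called, where 0.143% of 1398 tested miRNAs were, and only miR-5110 had an unadjusted p under 0.05, as did 7.37% of all. DESeq2's Wald test called 0 miRNAs in this comparison. miR-5110 was at -1.97 ± 0.54 on the log2 scale (edgeR, adjusted p = 0.125), the others between -0.14 (miR-5119) and 0.38 (miR-8092). For miR-5110 the male over female ratio was -0.53 (-0.65 to -0.41) under DOCA-salt and -3.47 (-3.82 to -3.16) at baseline. Its call depended on the setting. The adjusted p became 0.0394 when edgeR used DESeq2's size factors, 0.0129 with no count filter and 0.00165 without the plasma DOCA-salt male (which leaves the baseline male as the lone male library), while without the plasma baseline male the estimate was -0.65 (adjusted p = 0.979). In CSF 0 of the 3 tested members were called and none had an unadjusted p under 0.05, as 17.6% of all had, where 5.21% of 1036 tested miRNAs were called.

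Over the 4 plasma libraries the members did not share 1 profile. miR-8113 and miR-7674-5p were most alike (Pearson r = 0.95 of log2 TMM-scaled CPM), and miR-5110 was least like miR-8092 (r = -0.17). Each is a description over 4 points and carries no p. Likeness was compared among 730 miRNAs with a mean of at least 20 UMIs, the members included. The non-members closest to the members' mean profile over all 8 libraries were miR-432 (r = 0.993), miR-697 (0.986), miR-1964-5p (0.983), miR-30e-5p (0.980) and miR-92b-5p (0.978). The 8 libraries fall into a plasma and a CSF cluster, so these values carry mainly the fluid difference that chose the members. miR-432 had 239 and 180 UMIs in the plasma of the DOCA-salt male and female, against 95 and 129 in the baseline male and female, with 13 to 28 UMIs in CSF.

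Within plasma, the non-member most like miR-5110 was miR-7232-3p (r = 0.999 over 4 libraries). It had 53 and 62 UMIs in the DOCA-salt male and female, against 6 and 61 in the baseline male and female. A low baseline male was fixed for miR-7232-3p by its choice as the closest profile to miR-5110. In CPM the baseline male was the lowest plasma library for miR-5110, for miR-7221-3p and, by a smaller margin, for miR-7674-5p. For the other members the closest plasma profiles were those of miR-7045-5p (miR-8092, r = 0.999), miR-185-3p (miR-8113, 1.0), miR-9718 (miR-7674-5p, 1.0), miR-1668 (miR-5119, 0.999) and the epithelial miR-200c-3p (miR-7221-5p, 0.996). Each was the highest among the non-members of those 730, compared over 4 points. miR-200c-3p, a member of the miR-200 family, had 940 and 144 UMIs in the plasma of the DOCA-salt male and female, against 92 and 99 in the baseline male and female. As with miR-8113, its high library was the DOCA-salt male. That library was also highest for the epithelial list (6446 CPM, beside 879 to 1488 CPM in the other plasma libraries). The list holds miR-200c-3p itself, so this is no separate observation. The part of that source in the members' levels was not tested.

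Reads per UMI state how many sequenced copies stood behind each counted molecule. Library-wide they were 3.68 and 4.45 in the plasma of the DOCA-salt male and female, against 6.19 and 4.15 in the baseline male and female. In CSF they were 1.69 and 1.19 in the DOCA-salt male and female, against 1.40 and 1.27 in the baseline male and female. Plasma molecules were thus read more often than CSF molecules throughout, and the members followed their libraries. Of their 24 plasma entries, 22 lay between the 10th and 90th percentile of miRNAs with at least 20 UMIs in the same library.

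Most members stood somewhat above the library median in plasma, in 19 of 24 entries. miR-8113 was at 1.16 to 1.22 times the median, miR-7674-5p at 1.13 to 1.17, miR-5119 at 1.06 to 1.13, miR-7221-5p at 1.105 to 1.35 and miR-8092 at 0.975 to 1.12. miR-5110, the most abundant, was the only member at or below the median in all 4 plasma libraries, at 0.913 to 1.00 times. In its low library, the baseline male, it had 549 reads for 83 UMIs, or 6.61 reads per UMI beside a library median of 7.20, so its low count there was also low in reads. In CSF 7 of 24 entries reached 20 UMIs, and for miR-8113, miR-5110 and miR-5119 these gave 1.19 to 1.95 reads per UMI.

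**Figure D4:**
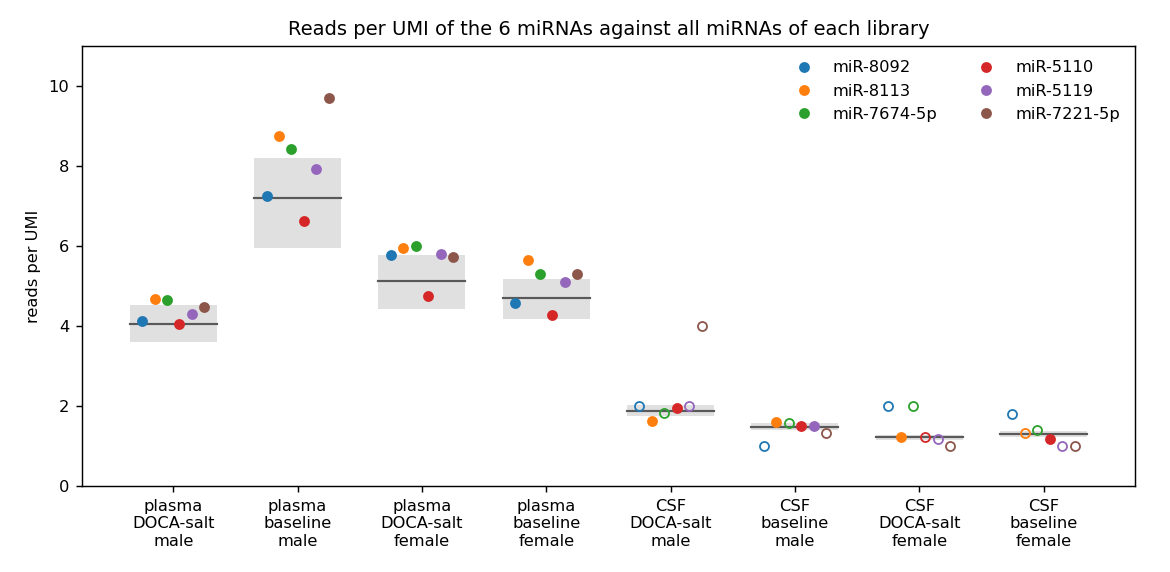
Reads per UMI of the 6 miRNAs (coloured points, open where the entry has fewer than 20 UMIs) in each library, with plasma libraries left of CSF libraries and DOCA-salt left of baseline. Grey boxes span the quartiles and grey lines the median of all miRNAs with at least 20 UMIs in that library. Members lie near the box of their own library, and miR-5110 lies at or under the line in all 4 plasma libraries.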

How the data were processed

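RNA of exosomes was taken through the miRNeasy Micro and QIAseq miRNA kits of Qiagen, per the labels' protocols. Reads were trimmed with Cutadapt 2.7, per the labels' protocols, and the submitters' processing notes name Bowtie 1.3.0, edgeR and the builds mm10 and GRCm38. The deposited tables give, per mature miRNA and library, UMI counts and read counts without scaling. The deposited CPM columns hold UMIs scaled to the library total, which was checked by recomputation and differed in 2 CSF rows, neither of a member.

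Libraries held 158572 to 337240 UMIs in plasma and 237878 to 1082504 in CSF. UMI counts were fitted with edgeR 4.0.16 (TMM, filterByExpr, quasi-likelihood test, Benjamini-Hochberg adjustment over all tested miRNAs) in R 4.3.3, with fluid as the term over 8 libraries, or with sex and treatment within a fluid, which leaves 1 residual degree of freedom. The fits were also run on simulated counts with known changes in the tested term only. These held no single far library, so they do not cover a case such as miR-5110 in the baseline male plasma. Ratios of library pairs were scaled by TMM, with a prior count of 1 and exact conditional binomial intervals. CPM and arm shares carry exact intervals (Clopper-Pearson for shares), covering counting error only. Alternatives were DESeq2 1.42.0, other scalings, no filter, reads in place of UMIs, other models and each library left out.

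The 6 members, the marker lists and the tests were chosen with earlier results of these data known. Named besides the members were opposite arms, miRNAs sharing a seed or lying within 10 kb, and those with the most similar profile.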

Additional observations from a re-analysis of the deposited data

Results flagged for a closer look

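Over 36 sets of 4 libraries examined for a single far value, 5 were singled out, and chance singles out about 1 in 20. In plasma the level of miR-8113 in the DOCA-salt male, 3249 CPM, was far from the other plasma libraries. The reads per UMI of miR-5110 relative to the library median were far above its other plasma values in the DOCA-salt male, at 0.9999, and those of miR-7221-5p in the baseline male, at 1.346. In CSF the same quantity was far from the rest for miR-7674-5p in the DOCA-salt female, at 1.641, and for miR-7221-5p in the DOCA-salt male, at 2.119, each resting on 1 UMI.

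For 3 miRNAs the DOCA-salt over baseline ratio had opposite signs in different groups, and none of these differences was tested. miR-5110 in plasma had a log2 ratio of 2.76 in males and -0.18 in females. miR-7674-3p was lower under DOCA-salt in both sexes in plasma, with a mean log2 ratio of -1.05, and higher in both sexes in CSF, where its counts were 4 to 10 UMIs and its intervals crossed 0. miR-7221-3p was higher under DOCA-salt in both sexes in plasma, with a mean log2 ratio of 1.62, and lower in both sexes in CSF, where its intervals also crossed 0.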

How the results depend on the processing

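The 593 calls between plasma and CSF came to 531 to 587 with a library left out, 558 with a replicate block for each combination of sex and treatment, and 797 with total-count scaling, under which 734 were higher and 63 lower in plasma against 293 and 300. Every member kept its direction, at 3.74 or above on the log2 scale. Over the alternatives the adjusted p of the fluid difference ran between 4.92e-05 and 0.0354 for miR-7221-3p and between 0.000397 and 0.0972 for miR-7674-3p. For DOCA-salt in plasma the 15 calls became 29 with DESeq2's size factors, 29 with no filter, 1 with the DESeq2 Wald test, 0 with total-count scaling, reads, the joint fit of both fluids or only the term tested, and 0 to 73 with a library left out (73 without the baseline female). For DOCA-salt in CSF the 2 calls became 4 with no filter, 0 to 1 with a library left out and 0 under the other alternatives. For males against females in plasma the 2 calls became 5 with DESeq2's size factors, 10 with no filter, 0 under the other alternatives and 0 to 28 with a library left out. In CSF the 54 calls became 359 with total-count scaling (6 higher and 353 lower in males), 25 with the Wald test, 34 with no filter, 5 with reads, 30 with the joint fit, 0 with only the term tested and 0 to 30 with a library left out. DESeq2's size factors gave 16 higher and 13 lower for DOCA-salt in plasma, against 4 and 11, and 27 higher and 9 lower for sex in CSF, against 33 and 21.

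No member had a called DOCA-salt or sex effect. Over the alternatives miR-5110 in plasma had adjusted p-values between 0.00234 and 0.997 for DOCA-salt and between 0.00165 and 1 for sex. Uncalled estimates changed sign as follows. With a library left out, DOCA-salt estimates of miR-5110 ran between -0.42 and 3.10 in plasma and -0.36 and 0.12 in CSF, and those of miR-5119 in CSF between -0.63 and 0.04. Sex estimates in plasma ran between -0.40 and 0.55 for miR-8113, -0.94 and 0.54 for miR-7674-5p, -0.39 and 0.07 for miR-5119 and -0.04 and 0.58 for miR-7221-5p. In CSF they ran between -0.21 and 0.50 for miR-8113, -0.24 and 0.29 for miR-5110 and -0.14 and 0.57 for miR-5119. Total-count scaling turned the sex estimates of miR-7674-5p (0.23) and miR-5119 (0.22) in plasma, and of miR-8113 (-1.05) and miR-5119 (-0.97) in CSF. Only the term tested turned that of miR-7674-5p in plasma (0.02). For miR-5110 in CSF the sex estimate turned to 0.01 with DESeq2's size factors and with its Wald test, 0.00 with no filter and 0.09 with reads, and the DOCA-salt estimate to 0.01 with reads. The cause was not tested. Fits without a library within a fluid used only the term tested, a model added after seeing the data, and assume that a lone library varies like the other groups. Reads per UMI stood above the median in 18 of 24 plasma entries with a minimum of 50 UMIs, and a prior count of 5 left 11 pair ratios above 0, and total-count scaling, added after seeing the data, 10. A minimum of 50 UMIs kept 4 of the 5 most similar profiles. CSF counts of 1 to 37 UMIs limit the precision there.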
